A study of Mus musculus with 17 samples.

Results

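The genes described are 39 cell cycle and proliferation genes, out of 38355 genes counted in the hippocampus of young and aged mice. They were taken from a list of gene symbols, each matched to 1 Ensembl gene, and not picked by a rule on their values. Earlier results of these data were known when the list was chosen. Polyadenylated RNA from hand-dissected hippocampus of untreated wild type C57BL/6J mice was sequenced in 17 libraries. A first experiment set 3-month-old (3M, n = 5) against 24-month-old mice (24M, n = 6 libraries) with single-end libraries, and a second set 3M (n = 3) against 29-month-old mice (29M, n = 3) with paired-end libraries, so that age and library type cannot be told apart between the aged groups. All groups share strain, genotype and tissue, and the labels give no sex and name no separate animal for each library, so that p-values measure the spread between these libraries. In bulk tissue, fewer cells of a type and less RNA per cell cannot be told apart.

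A cell divides after D and E type cyclins, with their kinases, release E2F transcription factors, which switch on the genes of DNA replication. The genes of mitosis are switched on later in the cycle. The B-Myb, FOXM1 and DREAM complexes govern them through a short promoter element, the cell cycle genes homology region (CHR), often with CCAAT boxes. In the adult hippocampus nearly all neurons are outside the cycle, and the dividing cells are mainly neural progenitors of the dentate gyrus, oligodendrocyte precursors, and some microglia and vascular cells.

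E2F letters were found mainly at the starts of licensing genes and CHR letters at those of mitotic genes, and 6 stretches are printed as examples. They lie upstream of the RefSeq transcription start (GRCm38.p6), are written 5′ to 3′ on the gene's strand, and carry in capitals every match to E2F letters (TTTCCCGC, TTTGGCGC, TTTCGCGC or TTTGCCGC) or CHR letters (TTTGAA or TTCGAA), on either strand. Overlapping matches form 1 run of capitals. Top2a and Kif11 have the lowest adjusted p-values among the members at 24M, Mki67 is the common marker of proliferation, Cdk1 holds both motifs, and Mcm6 and Mcm5 are replication genes. The Cdk1 stretch stops 27 bases before the start, where the annotated gene begins.
Top2a, chr11:99024190-99024409, minus strand: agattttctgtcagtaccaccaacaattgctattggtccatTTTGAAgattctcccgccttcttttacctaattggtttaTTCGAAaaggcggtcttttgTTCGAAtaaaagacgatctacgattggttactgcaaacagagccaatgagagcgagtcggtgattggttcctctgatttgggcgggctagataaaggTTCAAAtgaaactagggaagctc
Kif11, chr19:37376282-37376381, plus strand: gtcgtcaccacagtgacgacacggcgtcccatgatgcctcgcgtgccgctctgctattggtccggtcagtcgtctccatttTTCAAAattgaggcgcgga
Mki67, chr7:135716380-135716509, minus strand: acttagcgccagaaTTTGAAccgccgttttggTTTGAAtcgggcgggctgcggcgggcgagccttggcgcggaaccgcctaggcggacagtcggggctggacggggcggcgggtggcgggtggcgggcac
Cdk1, chr10:69352939-69353062, minus strand: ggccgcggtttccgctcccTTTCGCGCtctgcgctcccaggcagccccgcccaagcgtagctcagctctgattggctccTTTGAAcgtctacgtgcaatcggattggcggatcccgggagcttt
Mcm6, chr1:128359706-128359855, minus strand: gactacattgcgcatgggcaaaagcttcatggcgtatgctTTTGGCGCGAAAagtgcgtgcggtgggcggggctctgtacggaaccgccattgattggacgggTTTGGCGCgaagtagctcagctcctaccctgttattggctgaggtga
Mcm5, chr8:75109349-75109508, plus strand: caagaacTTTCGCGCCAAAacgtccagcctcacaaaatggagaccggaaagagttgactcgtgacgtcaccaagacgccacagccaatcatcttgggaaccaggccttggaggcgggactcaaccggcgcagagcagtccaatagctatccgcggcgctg

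RefSeq windows of 300 bases, 250 before and 50 after the start, were found for 33 of the 39 members, and Ccnd2, Ccne2, Ccna2, Mcm4, Aurkb and Tpx2 had none. E2F letters stood in the windows of 6 of 7 replication licensing genes (85.7%), and in those of 2.61% of all 27025 genes with a window. CHR letters stood in 6 of 8 genes of the mitotic kinase and checkpoint group and in 6 of 8 of the chromosome and spindle group (75% each), against 21.7% of all genes. The split was not complete, since 2 of the 7 licensing genes held CHR letters and the 4 DNA synthesis genes held neither motif. Of those 2, Mcm7 also held E2F letters and Mcm2 did not. A CCAAT box, on either strand, was found in 75.8% of members and 41.1% of all genes. In Top2a the CHR letters nearest the start began 23 bases upstream and occurred 4 times in the window, and in Kif11 they occurred once, 19 bases upstream. Such a match is a description of the letters and does not show binding.

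**Figure D1:**
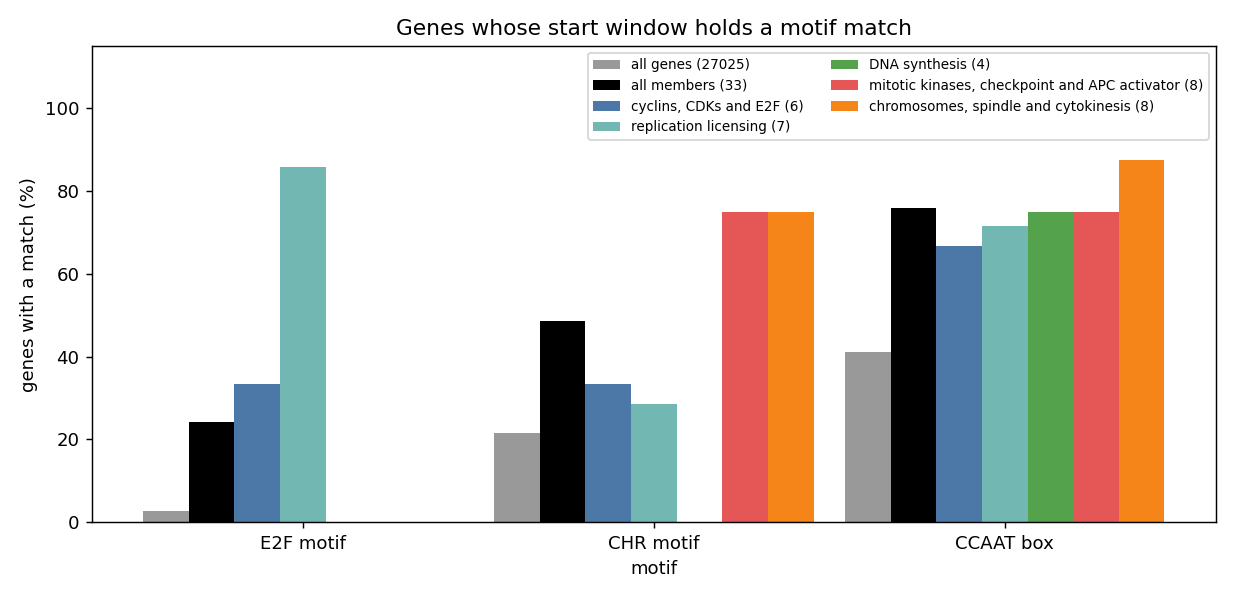
Percent of genes (y axis) whose 300-base start window holds at least 1 match to the E2F, CHR or CCAAT letters (x axis), as bars for all genes, all members and each role group, with the number of genes in parentheses. E2F letters stand in 85.7% of the licensing genes and CHR letters in 75% of each mitotic group, against 2.61% and 21.7% of all genes.

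Library totals ran from 9213474 to 28438296 counts assigned to genes, with medians of 20289215 (3M single-end), 14363898 (24M), 12061193 (3M paired-end) and 11701706 (29M). The 24M replicates 1 and 4 differed by less than the sampling noise, with a mean ratio of squared count differences to their Poisson expectation of 0.406 over 2671 genes of 20 to 99 counts, while the other 135 pairs of libraries gave 1.23 or more, so their mean was counted as 1 sample (n = 5 at 24M). Hippocampal neuron markers summed to between 945 and 1135 counts per 1000000 counts assigned to genes (CPM) in every sample. The single-end 3M replicate 4 carried 592 CPM of striatal marker RNA against 135 to 207 in the other 4, and 24M replicate 2 carried 542 CPM of blood marker RNA against 77.1 to 160. For Top2a, Kif11, Ccne2, Rrm2 and Kif23 the values without these libraries stand beside the results.

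Most members were low in this tissue. Per length, as CPM divided by exon length in kilobases (RPKM) in the 3M single-end samples, the D type cyclin Ccnd2 was the highest at 11.2 ± 0.475 RPKM (SD, n = 5), followed by Pcna at 6.64 ± 0.445, Ccne1 at 5.83 ± 0.446, Mcm6 at 4.27 ± 0.131 and Mcm4 at 3.94 ± 0.448. The last pair lay within 1 SD of each other. Mki67 stood at 0.379 ± 0.0771 RPKM, Top2a at 0.224 ± 0.0408 and Cdk1 at 0.125 ± 0.0768, and the lowest were Bub1 at 0.0362 ± 0.00676 and Ccnb1 at 0.0261 ± 0.00995. The 5 highest members act in G1 and replication, and these 2 lowest in mitosis. 33 members passed the filter on low counts at 24M and 29 at 29M, and the others are given as raw counts.

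At 24M, 1 of the 33 tested members fell and 0 rose. The gene that fell was Top2a (ENSMUSG00000020914), the topoisomerase that untangles chromosomes before they separate, to 56.6% of its 3M level. Called means an adjusted p (Benjamini-Hochberg) no higher than 0.05 together with a change of 0.5 or more on the log2 scale in either direction, by edgeR's quasi-likelihood test over 15683 genes, of which 0.638% were called lower and 1.34% higher. The fold changes of 24 members lay below 0 and those of 9 above, with a median of -0.12, against 50.8% below 0 and a median of -0.00319 over all genes. 7 members had an unadjusted p under 0.05 in the lower direction (all genes 12.1%) and 1 in the higher (all genes 14%). By adjusted p alone the counts were again 1 and 0, where all genes gave 2.37% lower and 3.21% higher. In 5 members every 24M sample lay below every 3M sample in CPM and in 0 above, against 3.59% and 2.94% of all genes. Among these 5, Ccnd2 and Mcm6 overlapped when library totals were scaled as in the test (TMM). The 95% interval of the change excluded both a halving and a doubling for 27 of the 33, against 14597 of all 15683 genes.

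At 29M, 0 of the 29 tested members passed both thresholds (edgeR's quasi-likelihood test), where 0.113% of 15097 genes were called lower and 1.34% higher. DESeq2 also called 0. By adjusted p alone 1 member was lower and 0 higher, against 0.662% and 2.32% of all genes, and that member was Ccnd2. 3 members had an unadjusted p under 0.05 in the lower direction and 0 in the higher, against 7.48% and 9.86%, and they were Ccnd2, Top2a and Cenpf. In CPM, every 29M sample lay below every 3M sample in 3 tested members (Ccnd2, Rrm1 and Top2a) and above in 0, against 10.5% and 9.05% of all genes. Of these, Rrm1 overlapped with TMM-scaled totals. The fold changes of 19 members lay below 0, with a median of -0.07 against -0.0021 over all genes. The interval excluded a halving and a doubling for 25 of the 29, against 14027 of all 15097 genes.

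**Figure D2:**
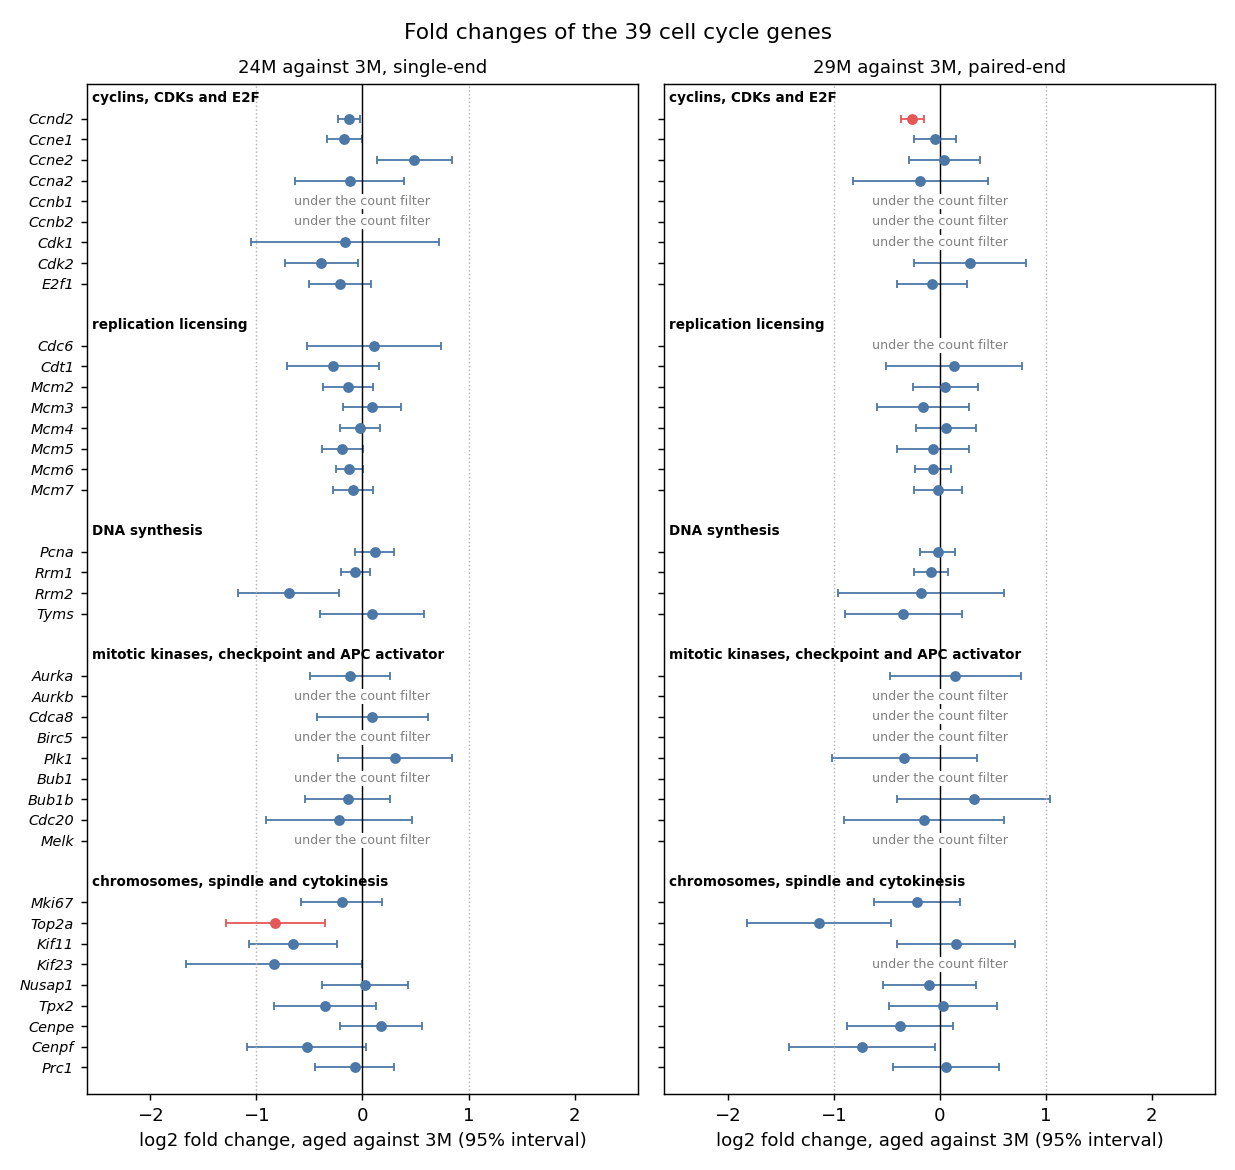
Log2 fold change of aged against 3M samples (x axis; point, with its 95% interval) for each of the 39 members (y axis, by role), at 24M on the left and 29M on the right; dotted lines mark a halving and a doubling. Red marks an adjusted p of at most 0.05, which Top2a reaches at 24M (-0.82) and Ccnd2 at 29M (-0.26), and grey text marks genes under the count filter.

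Among the cyclins, kinases and E2f1, Ccnd2 (ENSMUSG00000000184) was the most abundant and the most precisely measured. Cyclin D2 drives the G1 phase and is needed for the division of adult hippocampal progenitors. Its level in the 3M single-end samples was 101, 102, 111, 105 and 109 CPM, and in the 24M libraries 1 to 6 it was 93.6, 99.8, 98.5, 94.6, 97.3 and 91.9 CPM. In the paired-end libraries it was 105, 102 and 111 CPM at 3M and 92.7, 78.3 and 92.6 CPM at 29M. In CPM the groups did not overlap in either experiment, and 29M replicate 2 was the lowest library. With library totals scaled as in the test (TMM), 24M replicate 3 lay just above 3M replicate 1, while the paired-end groups stayed apart. The log2 fold change was -0.12 (SE 0.05) at 24M, adjusted p = 0.126, and -0.26 (SE 0.05) at 29M, adjusted p = 0.0138. The change at 29M, to 83.6% of the 3M level, is under the fold threshold, and its adjusted p was 0.0816 without 3M paired-end replicate 3, 0.0573 without 29M replicate 1, 0.0544 without 29M replicate 2 and 0.0522 with all 4 groups in 1 fit.

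The E cyclins activate Cdk2 at the entry into S phase, and the pair differed in direction at 24M. Ccne2 stood at 3.15, 5.12, 3.83, 4.86 and 6.26 CPM at 3M, and at 7.76, 7.18, 6.88, 5.65, 5.51 and 5.97 CPM in the 24M libraries. The ranges overlapped through 3M replicate 5, and the log2 fold change of 0.49 (SE 0.17, adjusted p = 0.088), the largest above 0 among members, did not pass. Leaving out 1 library gave 0.38 to 0.62, with adjusted p-values of 0.0175 to 0.192, and it passed only without 3M replicate 5, while other settings gave adjusted p-values of 0.041 (all 4 groups in 1 fit, under the fold threshold) to 0.23. It was 0.51 (adjusted p = 0.125) without 3M replicate 4 and 0.45 (adjusted p = 0.192) without 24M replicate 2. At 29M Ccne2 had a log2 fold change of 0.04 (95% interval -0.29 to 0.38). Ccne1 had -0.17 (interval -0.33 to -0.01, adjusted p = 0.17) at 24M and -0.05 at 29M.

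Cdk2, the partner of these cyclins, stood at a log2 change of -0.39 (adjusted p = 0.145) at 24M and 0.28 (adjusted p = 0.604) at 29M. E2f1, the factor that turns on replication genes, had -0.21 (adjusted p = 0.348) and -0.07 (adjusted p = 0.851). Ccna2, the S phase and G2 cyclin, had -0.12 and -0.19 with intervals that spanned 0. Cdk1, the kinase that starts mitosis, was counted 9, 7, 16, 9 and 26 times in the 3M single-end libraries and 15, 8, 6, 12, 7 and 5 times at 24M, and its log2 change was -0.16 (SE 0.41). These counts overlap throughout, and without 3M replicate 5, the highest, the value was 0.25.

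The replication licensing genes, which load the MCM helicase onto DNA before S phase, had no called member at either age, among 8 tested at 24M and 7 at 29M (edgeR), and 0 at an unadjusted p under 0.05. At 24M 6 of the 8 fold changes were below 0, between -0.28 (Cdt1, the MCM loading factor) and 0.11 (Cdc6, its partner). The helicase subunits Mcm5 and Mcm6 were the members of this group whose samples did not overlap in CPM at 24M. Mcm6 stood at 19.9, 20.8, 19.6, 19.2 and 20.1 CPM at 3M and at 17.2, 18.6, 17.3, 17.6, 19.1 and 18.8 CPM at 24M. The groups were close, with the highest 24M library just under the lowest 3M one in CPM, but above it with TMM-scaled totals. The log2 fold change was -0.12 (SE 0.06, adjusted p = 0.207). Mcm5 had 6.11 to 6.81 CPM at 3M and 4.98 to 5.96 CPM at 24M, and its log2 change was -0.19 (SE 0.09, adjusted p = 0.197). At 29M both overlapped with 3M, with -0.06 for Mcm5 and -0.07 for Mcm6. Mcm2, Mcm3, Mcm4 and Mcm7 ranged from -0.14 to 0.09 at 24M, and from -0.16 to 0.06 at 29M. All 8 intervals at 24M and all 7 at 29M excluded a halving and a doubling.

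Of the 4 DNA synthesis genes, Rrm2 (ENSMUSG00000020649) had the largest change. It encodes the subunit of ribonucleotide reductase that is made mainly in S phase. Rrm2 was counted 33, 36, 31, 31 and 31 times at 3M single-end (1.5, 1.88, 1.09, 1.59 and 1.53 CPM), and 13, 15, 20, 15, 10 and 9 times in the 24M libraries (0.926, 1.13, 1.01, 1.02, 0.563 and 0.977 CPM). The CPM ranges overlapped only through 3M replicate 3, and the log2 fold change was -0.70 (SE 0.22, adjusted p = 0.0737). With the 6 libraries at 24M kept apart, which counts the near-identical pair as 2 samples, it was -0.68 (adjusted p = 0.0429). Leaving out 1 library gave -0.80 to -0.55, with adjusted p-values of 0.0574 to 0.137, and other settings gave up to 0.256. Without 3M replicate 4 it was -0.68 (adjusted p = 0.124), and without 24M replicate 2 it was -0.77 (adjusted p = 0.119). At 29M it was -0.18 (95% interval -0.96 to 0.60), on 11, 17 and 16 counts at 3M and 6, 11 and 20 at 29M.

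Pcna, the clamp that holds the polymerase on DNA, and Rrm1, the other reductase subunit, are also used in DNA repair outside the cycle. Pcna had 15.2, 15.5, 14.9, 16.7 and 17.4 CPM at 3M and 17.2, 20.2, 16.4, 18, 14.9 and 17 CPM at 24M. Its log2 fold change was 0.12 (interval -0.07 to 0.30) at 24M and -0.02 (interval -0.19 to 0.15) at 29M. Rrm1 had -0.07 (SE 0.06) and -0.08 (SE 0.08), and at 29M its 3 samples, 18 to 18.3 CPM, lay just below the 3M range of 18.3 to 20.3 CPM. With TMM-scaled totals these Rrm1 samples overlapped. Tyms, which makes thymidylate, had 0.09 and -0.34 (adjusted p = 0.838 and 0.536).

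The mitotic kinases and checkpoint genes had 5 tested members at 24M and 4 at 29M, with 0 called and 0 at an unadjusted p under 0.05. Plk1, a kinase of mitotic entry, had a log2 fold change of 0.31 (SE 0.25) at 24M and -0.33 (SE 0.32) at 29M. Aurka, the centrosome kinase, had -0.12 and 0.15, and Bub1b, of the spindle checkpoint, had -0.14 and 0.32. Cdc20, which activates the anaphase-promoting complex, had -0.22 and -0.15, and Cdca8, of the chromosomal passenger complex, had 0.09 at 24M. Each of these intervals spanned 0.

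Chromosome and spindle genes held the largest changes below 0. Top2a was counted 50, 46, 44, 42 and 35 times in the 3M single-end libraries (2.28, 2.4, 1.55, 2.15 and 1.73 CPM), and 22, 19, 16, 14, 15 and 14 times in the 24M libraries (1.57, 1.44, 0.81, 0.953, 0.844 and 1.52 CPM). With replicates 1 and 4 merged the groups did not overlap, although replicate 1 alone lay just above 3M replicate 3. At 24M the log2 fold change was -0.82 (SE 0.22, adjusted p = 0.0434 by edgeR's quasi-likelihood test). Over the 11 fits that left out a library it ranged from -0.91 to -0.71, with adjusted p-values of 0.023 to 0.0994, and the call was lost in 7. Those were the fits without 3M replicate 1 (adjusted p = 0.0954), 2 (0.078) or 4 (0.0784), or without 24M replicate 2 (0.0756), 3 (0.0994), 4 (0.0606) or 5 (0.0748), so that the libraries with striatal and blood RNA are among them. The call was also lost when all libraries were thinned to the smallest (0.121) or replicates 1 and 4 were left out (0.0828). In the second experiment Top2a was counted 17, 24 and 13 times at 3M (1.41, 1.59 and 1.18 CPM) and 7, 5 and 11 times at 29M (0.598, 0.455 and 0.811 CPM). These samples did not overlap either, at 45.4% of the 3M level and a log2 fold change of -1.14 (SE 0.31), but the adjusted p was 0.0734.

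Kif11 (ENSMUSG00000012443) encodes the motor that pushes the spindle poles apart. It had 2.19, 2.82, 2.46, 3.23 and 2.46 CPM at 3M single-end and 1.78, 0.906, 1.72, 1.97, 1.97 and 1.74 CPM in the 24M libraries. The groups did not overlap, and 24M replicate 2 was the lowest. The log2 fold change was -0.65 (SE 0.19, adjusted p = 0.0609), and it passed under DESeq2 (adjusted p = 0.0447), with all 4 groups in 1 fit (0.0265), with the 24M libraries kept apart (0.0377) and without 3M replicate 5 (0.0435). Over the fits that left out a library it ranged from -0.74 to -0.51, with adjusted p-values of 0.0435 to 0.128, and other settings gave up to 0.266. It was -0.51 (adjusted p = 0.128) without 24M replicate 2 and -0.57 (adjusted p = 0.119) without 3M replicate 4. At 29M the value was 0.15 (95% interval -0.40 to 0.70), on 1.66, 1.79 and 1.55 CPM at 3M and 2.31, 1.91 and 1.4 CPM at 29M.

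Kif23, a motor of the central spindle, had the largest change below 0 at 24M, -0.84 (SE 0.39, adjusted p = 0.189), on 11 to 21 counts a library at 3M and 1 to 10 at 24M. It was -0.68 without 3M replicate 4 and -0.75 without 24M replicate 2 (adjusted p = 0.327 in both). Its CPM ranges overlapped, and the gene was under the filter at 29M. Cenpf, a kinetochore protein, had -0.52 (adjusted p = 0.219) at 24M and -0.74 (adjusted p = 0.255) at 29M, on 14, 37 and 20 counts at 3M paired-end and 10, 11 and 19 at 29M. Mki67, which coats mitotic chromosomes, had 4.33, 4.18, 2.88, 3.07 and 4.58 CPM at 3M single-end and 3.28, 2.42, 3.95, 3.06, 2.93 and 4.02 CPM in the 24M libraries. These ranges overlapped almost fully, with a log2 fold change of -0.20 (interval -0.58 to 0.19, adjusted p = 0.511). At 29M Mki67 had -0.21 (interval -0.62 to 0.19), on 4.15, 3.92 and 3.92 CPM at 3M and 4.19, 3.28 and 2.88 CPM at 29M. Nusap1, Tpx2, Cenpe and Prc1, which bind spindle microtubules or kinetochores, ranged from -0.35 to 0.18 at 24M, and from -0.37 to 0.06 at 29M, and none of them passed.

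**Figure D3:**
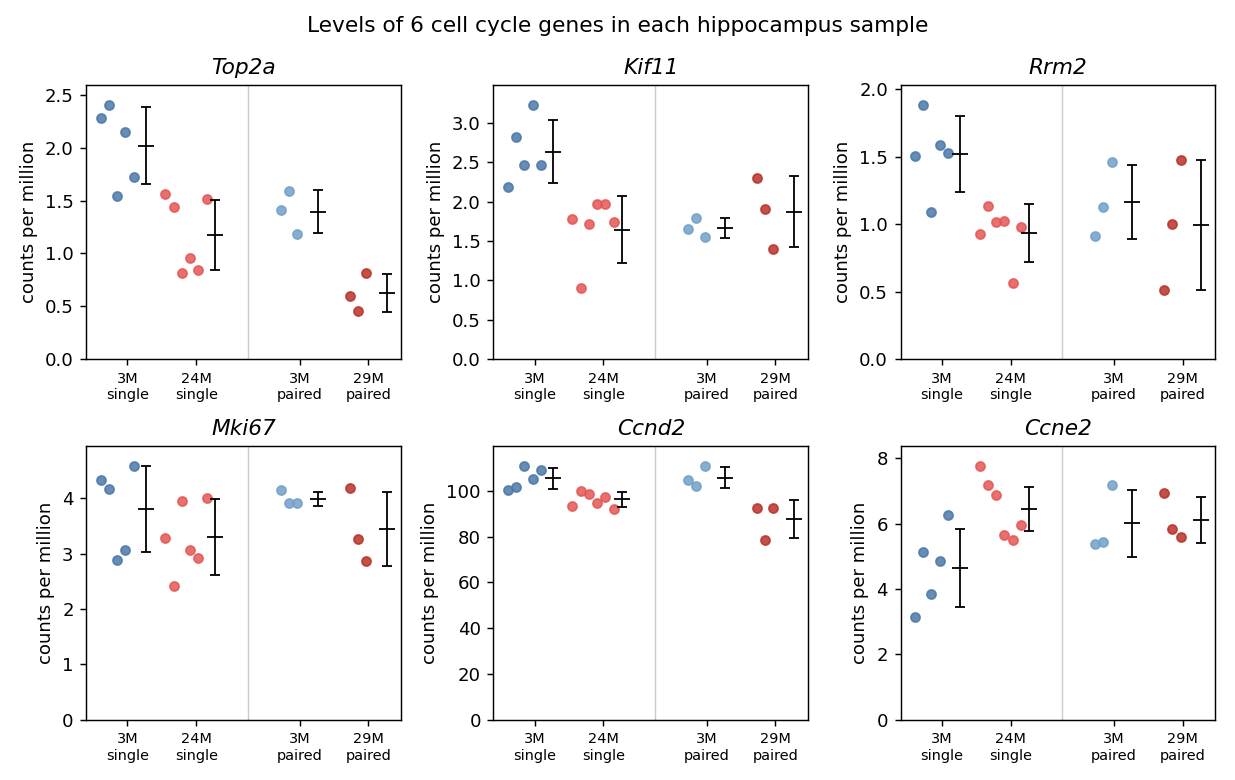
Level in CPM (y axis) of 6 members in every library, by group (x axis), with single-end libraries left of the grey line; points are libraries, and bars give the mean and SD over samples, with 24M replicates 1 and 4 as 1 sample. Top2a means are 2.02 and 1.17 in the single-end groups and 1.4 and 0.621 in the paired-end groups, while Mki67 overlaps in both.

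Summed over the 18 mitotic members, the level was 29 to 33.2 CPM in the 3M single-end samples and 22.8 to 28.9 CPM at 24M, and 28.3 to 28.9 CPM against 23.8 to 26.4 CPM in the paired-end samples. The aged samples lay below the 3M ones in both experiments, at 24M by a margin smaller than the scaling: with TMM-scaled totals the ranges were 29.1 to 33 CPM and 22.9 to 29.4 CPM and overlapped. Without Top2a the sums were 27 to 31 CPM and 21.9 to 28.1 CPM, which overlapped, and 27 to 27.3 CPM against 23.4 to 25.7 CPM, which did not. The 9 mitotic kinase and checkpoint genes on their own overlapped in both experiments. They summed to 8.03 to 9.93 CPM at 3M and 7.2 to 9.11 CPM at 24M. Their paired-end sums were 7.71 to 9.56 CPM and 7.01 to 8.97 CPM. The 9 chromosome and spindle genes overlapped in the single-end samples only. Over all single genes, 3.59% at 24M and 10.5% at 29M lay wholly below 3M in CPM. Licensing genes summed to 61.7 to 67.4 CPM at 3M and 57.7 to 61.7 CPM at 24M, and to 57.5 to 64 CPM and 57.2 to 61.6 CPM in the paired-end samples. With TMM-scaled totals the single-end ranges were 61.6 to 67.1 CPM at 3M and 58.7 to 62 CPM at 24M and overlapped. DNA synthesis genes overlapped in both experiments. Cyclins, CDKs and E2f1 summed to 134 to 145 CPM at 3M and 124 to 134 CPM at 24M. All 39 members summed to 264 to 286 CPM and 250 to 263 CPM. Both were narrowly apart in CPM and overlapped with TMM-scaled totals. The paired-end sums of the first group were 135 to 144 CPM and 109 to 127 CPM. Those of the 39 members were 278 to 298 CPM and 251 to 274 CPM. Both stayed apart with TMM-scaled totals. Without Ccnd2 the members overlapped, at 173 to 193 CPM and 173 to 181 CPM. These sums are descriptions and carry no test.

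**Figure D4:**
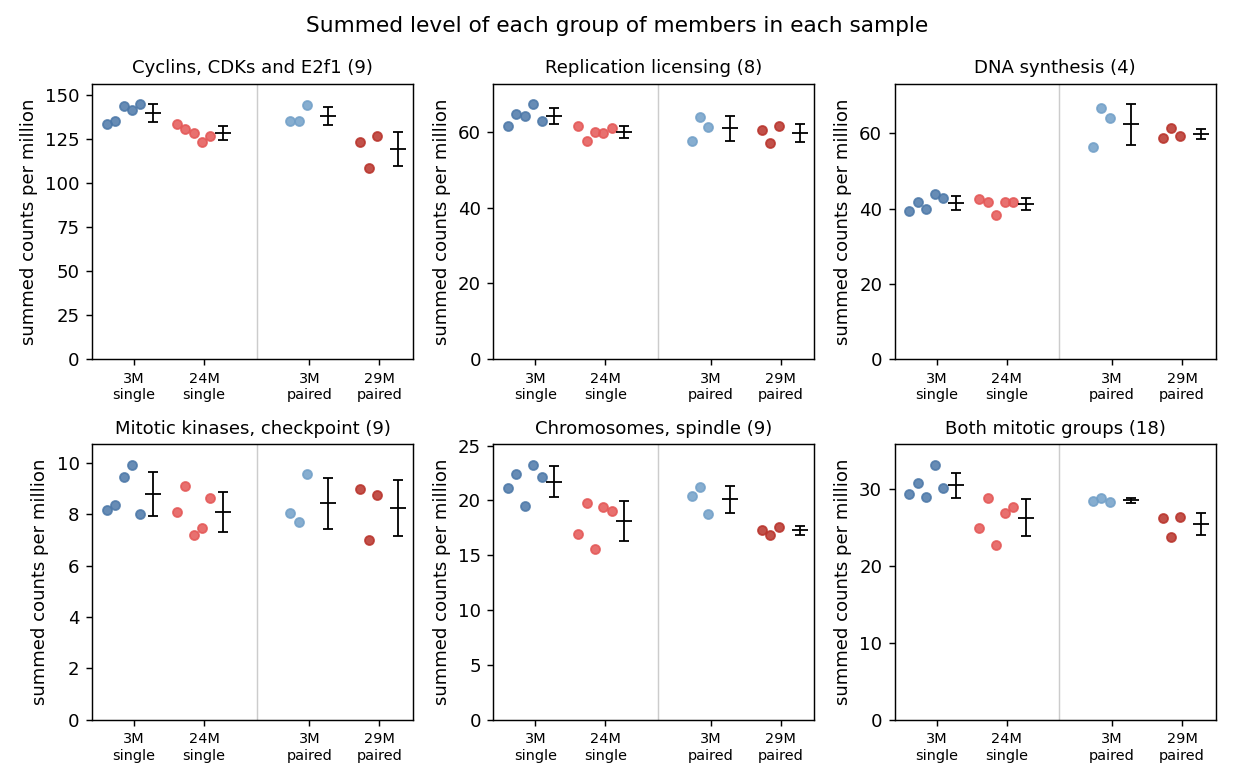
Summed level in CPM (y axis) of the members of each role group, and of both mitotic groups together, in every sample by group (x axis), with single-end samples left of the grey line; bars give the mean and SD, and 24M replicates 1 and 4 are 1 point. The 9 chromosome and spindle genes sum to 16.8 to 17.6 at 29M and 18.8 to 21.2 in the matching 3M samples, while the single-end samples, 15.6 to 19.8 at 24M and 19.5 to 23.2 at 3M, overlap.

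10 members were under the filter in at least 1 comparison, and 6 of them in both. The B cyclins, which activate Cdk1 at mitosis, were among those 6. Ccnb1 was counted 2, 1, 3, 3 and 3 times in the 3M single-end libraries and 3, 0, 1, 3, 0 and 0 times at 24M, and 3, 4 and 3 times at 3M paired-end against 1, 0 and 2 times at 29M. The paired-end counts did not overlap, but they differ by few reads. Ccnb2 was counted 1 to 12 times in every library, while a pseudogene named after it, Ccnb2-ps, had 33 to 99 counts. Reads common to both would be left out as not unique, so the level of Ccnb2 is uncertain.

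Aurkb, the kinase of the chromosomal passenger complex, was counted 5, 3, 10, 5 and 10 times at 3M and 4, 3, 2, 2, 1 and 1 times at 24M, and 3, 2 and 2 times against 3, 1 and 1 in the paired-end libraries. Its counts overlapped in both experiments. Birc5 (survivin), of the same complex, had 7 to 16 counts at 3M and 4 to 11 at 24M, Bub1, a checkpoint kinase, 3 to 4 and 0 to 4, and Melk, a kinase of dividing progenitors, 4 to 9 and 1 to 6. Libraries differ in depth, so these counts are not on 1 scale. None of these counts was tested. Cdk1, Cdc6, Cdca8 and Kif23 were under the filter at 29M, with 1 to 11 counts a library in the 29M group.

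**Figure D5:**
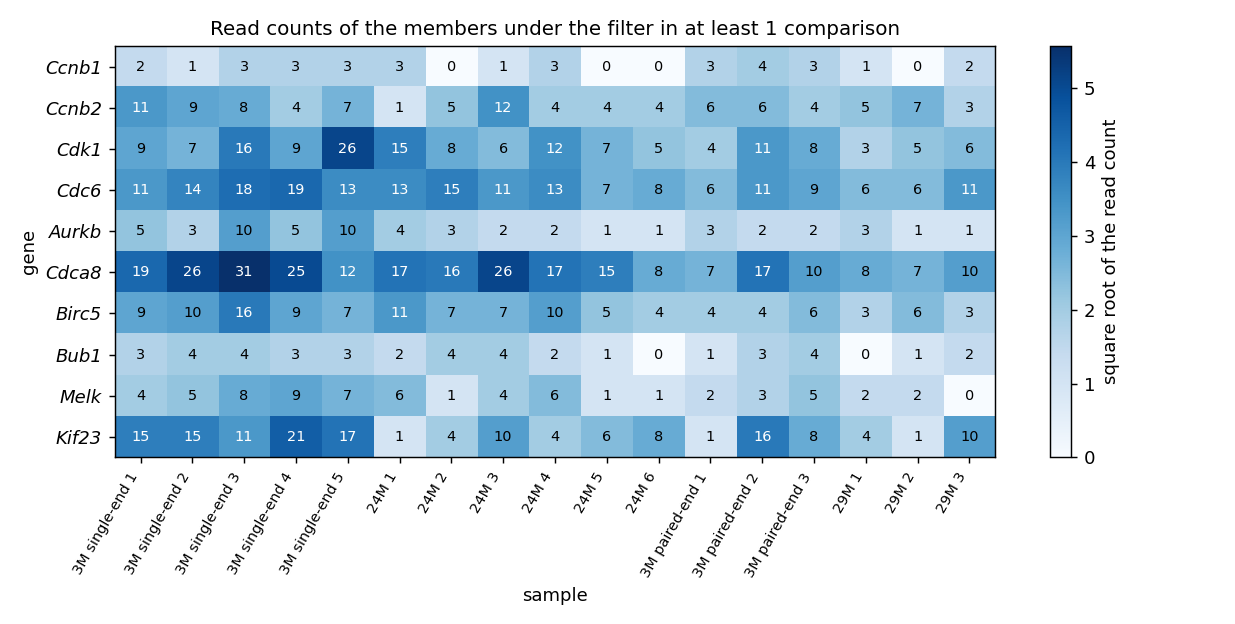
Read counts (numbers, with color as the square root of the count) of the 10 members under the filter in at least 1 comparison (y axis) in all 17 libraries (x axis). Ccnb1 and Bub1 have 0 to 4 counts in every library, and Cdca8 reaches 31.

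The changes at both ages were then compared in 1 fit of all 4 groups. 0 of 33 members differed at an adjusted p of 0.05 (edgeR's quasi-likelihood test), with 2 at an unadjusted p under 0.05, and 0 of 16055 genes differed, with 1674 at an unadjusted p under 0.05. The 2 members were Kif11, whose log2 change was larger by 0.81 (SE 0.33, adjusted p = 0.408) at 29M than at 24M, and Cdk2, by 0.67 (SE 0.28, adjusted p = 0.424). For Top2a the difference was -0.33 (unadjusted p = 0.429 by edgeR). Library type varies with age in this contrast. Between the 3M groups, which have the same age, Pcna had 15.9 ± 1.07 CPM (SD, n = 5) in single-end and 39.4 ± 4.17 CPM (n = 3) in paired-end samples, 2.47 times as much, and Mcm7 1.44 times, while the median ratio over 33 members was 0.923. Alignments set aside as not unique made up 22.9 to 26.1% of those counted in the 3M single-end and 11.4 to 12.4% in the 3M paired-end libraries, and the part of this in the Pcna level was not tested. The annotation also names pseudogenes of Pcna, and of these Pcna-ps1 had 0 to 1 counts and Pcna-ps2 1 to 10 in each library. Pcna-ps2 stood at 0.211 to 0.522 CPM in the 3M single-end and 0.182 to 0.58 CPM in the 3M paired-end libraries.

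Of 128 other cell cycle genes, 105 were tested at 24M, with 1 called lower and 1 higher, and 93 at 29M, with 0 called by edgeR. Of all genes, 0.638% were called lower and 1.34% higher at 24M, and 0.113% and 1.34% at 29M. At 24M 8 had an unadjusted p under 0.05 (edgeR) in the lower and 9 in the higher direction, against 12.1% and 14% of all genes. At 29M these counts were 1 and 4, against 7.48% and 9.86%, and DESeq2 also called 0. The median log2 fold change was -0.01 at 24M and -0.02 at 29M. The gene called lower at 24M was Nuf2, a kinetochore component, with 3.15 to 4.04 CPM at 3M and 1.36 to 2.65 CPM at 24M, a log2 fold change of -0.62 and an adjusted p of 0.0496. Its call was lost in 9 of the 11 fits without 1 library. At 29M Nuf2 had -0.79 (adjusted p = 0.09), with no overlap. Anln, an actin-binding protein of the cleavage furrow that oligodendrocytes also make, had 37.7 to 60.8 CPM at 3M and 62.2 to 83.4 CPM at 24M, where it rose by a log2 fold change of 0.64 (adjusted p = 0.0154), and it had 0.48 at 29M (adjusted p = 0.00312, under the fold threshold). Cit, a kinase of cytokinesis that neurons also make, had -0.43 (adjusted p = 0.00563) and Lin54, the DREAM subunit that reads the CHR, 0.39 (adjusted p = 0.0354) at 24M, both under the fold threshold. At 29M Cdc25b, a phosphatase that activates Cdk1, had 0.32 (adjusted p = 0.0574).

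Markers of the lineages to which dividing hippocampal cells belong also differed between ages. Of 10 neurogenic lineage markers, 5 were called lower at 24M (Dcx, Sox11, Igfbpl1, Draxin and Sox4) and, of 9 tested at 29M, 2 (Igfbpl1 and Eomes). For these and the lists below, the shares called over all genes were 0.638% lower and 1.34% higher at 24M. At 29M they were 0.113% and 1.34%. Igfbpl1 had log2 fold changes of -2.07 and -2.76. When 1 library was left out, the calls of Igfbpl1, Draxin and Sox4 were kept, while Sox11 lost its call in 4 and Dcx in 3 of 11 fits, and Eomes in 5 of 6. At 24M 2 of the 10 lay above 0, Neurod1 with 0.39 (adjusted p = 0.0398, under the fold threshold) and Calb2 with 0.09. Their summed level was 181 to 218 CPM at 3M and 138 to 183 CPM at 24M, which overlapped, and 165 to 207 CPM against 130 to 143 CPM in the paired-end samples. Of 6 markers of neural stem cells and radial glia, Vim, an intermediate filament also made by astrocytes and vessels, rose at both ages (0.61 and 0.75), and Fabp7 fell at 24M (-0.59), with its call lost in 1 of 11 such fits. The oligodendrocyte precursor list had 1 of 9 called at each age, Gpr17, a receptor of committed precursors, whose mean went from 55.2 to 27.7 CPM at 24M and from 55.2 to 28.3 CPM at 29M (log2 fold change -0.95). The list as a whole did not move one way, with 5 of 9 above 0 at 24M and 4 of 9 at 29M. Microglia markers lay above 0 in 7 of 7 at both ages, with 1 called at each, P2ry12 at 24M, lost in 6 of 11 fits without 1 library, and Tmem119 at 29M, lost in 3 of 6. In the vessel, meningeal, lymphocyte and blood lists the calls were Cldn5 (-0.60) and Lum (0.85) at 24M, and Ptprc (0.96), Hba-a1 (0.95) and Alas2 (0.85) at 29M. The vessel list had 3 of 6 above 0 at 24M and 0 at 29M, and the meningeal list 2 of 4 and 0. All 5 blood markers lay above 0 at both ages, and Ptprc was the 1 lymphocyte marker tested. Leaving out 1 library ended the call of Cldn5 in 3 and of Lum in 5 of 11 fits, and of Ptprc in 2, Hba-a1 in 4 and Alas2 in 5 of 6. The part of these cell types in the levels of Top2a, Kif11 and the other members was not tested.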

How the data were processed

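The deposited files hold raw counts of reads per Ensembl gene, 1 file per library. Per the submitters' processing notes and methods, the authors used CASAVA, STAR 2.3.0, HTSeq and GRCm38.p2; the overlap mode (intersection non-empty) is the 1 HTSeq setting listed as changed from its default, and the strand setting and annotation release used for counting are not given in the sources used here. Rows that name no gene stayed out of totals and tests; of all counts in a file, 8.59 to 15.9% had no feature and 10.8 to 26.6% were not unique. Symbols and exon lengths came from GENCODE vM21, which named 36602 of 38355 genes. Counts were tested in R 4.3.3 with edgeR 4.0.16 (TMM, default filter, quasi-likelihood test, Benjamini-Hochberg adjustment over all genes tested), 24M and 29M each against the 3M samples of the same library type. The filter asked for about 0.517 CPM in 5 samples at 24M and 0.842 CPM in 3 at 29M. CPM is relative to each library's count total; standard errors follow from the p-value and fold change. Alternatives were DESeq2 1.42.0, its size factors, other filters, thinning to 9213474 counts, a fit of all 4 groups, a replicate block, other treatments of the 24M pair, and leaving out each library. The fits were tested on simulated data. All 39 members are named, with other genes of the cell cycle or marker lists that were called (1 is not reported here), and the 3 other cell cycle genes of smallest p per comparison. Members and lists were chosen with earlier results of these data known.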

Additional observations from a re-analysis of the deposited data

Results flagged for a closer look

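Each group of 5 samples was searched for a sample whose gap to the nearest other, as a share of the group's range, exceeded Dixon's critical value. 12 of 112 member levels and list sums did so, where chance gives about 1 in 20, or 5.6.

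Among the members, Cdk1 was highest in 3M single-end replicate 5, at 1.28 CPM against 0.366 to 0.563 in the others (gap share 0.785). At 24M, Kif11 was lowest in replicate 2, at 0.906 CPM against 1.72 to 1.97 (0.767), and Rrm1 was lowest in the same library, at 19.4 CPM against 21.3 to 21.9 (0.756). Rrm2 was lowest in 24M replicate 5, at 0.563 CPM against 0.975 to 1.13 (0.723), and so was Cenpe, at 1.8 CPM against 3.09 to 3.47 (0.769). The summed DNA synthesis genes were also lowest there, at 38.3 CPM against 41.6 to 42.6 (0.775).

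Of the other sums, the other replication genes were lowest in 3M single-end replicate 1 (451 CPM against 479 to 485, gap share 0.818) and the other G2/M regulators in replicate 5 (262 CPM against 278 to 283, 0.794). Lymphocyte markers were highest in 3M single-end replicate 2 (8.88 CPM against 4.01 to 4.81, 0.836) and striatal markers in replicate 4 (592 CPM against 135 to 207, 0.843). Blood markers were highest in 24M replicate 2 (542 CPM against 77.1 to 160, 0.822) and meningeal markers lowest in 24M replicate 3 (71.5 CPM against 124 to 142, 0.748).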

How the results depend on the processing

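Of 681 fold changes of members under the alternatives at 24M and 402 at 29M, 10 and 0 lost a call and 6 and 1 gained one. The sign changed in 20 (9 of 33 members) and 28 (14 of 29), where adjusted p-values were 0.656 and 0.819 or more. When 1 library was left out at 24M, Cdk1 ranged from -0.30 to 0.25, Cdc6 from -0.076 to 0.29, Mcm4 from -0.075 to 0.026, Tyms from -0.13 to 0.22, Cdca8 from -0.053 to 0.19, Bub1b from -0.25 to 0.018, Nusap1 from -0.064 to 0.15, Prc1 from -0.17 to 0.020 and, of the other genes, Cdc25b from -0.12 to 0.012. At 29M Ccne2 ranged from -0.043 to 0.17, E2f1 from -0.27 to 0.072, Cdt1 from -0.16 to 0.31, Mcm2 from -0.050 to 0.12, Mcm4 from -0.061 to 0.15, Mcm5 from -0.14 to 0.052, Mcm7 from -0.099 to 0.052, Pcna from -0.088 to 0.029, Rrm2 from -0.59 to 0.14, Aurka from -0.11 to 0.40, Kif11 from -0.012 to 0.35, Tpx2 from -0.086 to 0.12, Prc1 from -0.081 to 0.30 and, of the marker genes, Lum from -0.43 to 0.20. After thinning, Mcm4 was 0.012 and Prc1 0.14 at 24M, and Ccne1 was 0.0071, Ccne2 -0.11, Mcm7 0.045 and Pcna 0.021 at 29M. A replicate block gave 0.035 for Mcm4 and 0.054 for Cdc20 at 24M, and leaving out the 24M pair -0.039 for Nusap1. Members called lower at 24M numbered 3 with the 24M libraries kept apart, 2 under DESeq2 or with all 4 groups in 1 fit, 0 after thinning or without the 24M pair, and 0 to 2 when 1 library was left out (higher 0 to 1). At 29M dropping the fold threshold gave 1.

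Other cell cycle genes called lower at 24M numbered 0 with DESeq2 size factors, after thinning or without the pair, 2 with no filter, all 4 groups, no fold threshold or libraries kept apart, and 0 to 2 without 1 library. Those called higher numbered 4 with no fold threshold and 1 to 2 without 1 library. At 29M the count was 1 lower with no filter, 1 higher with no fold threshold, and 0 to 1 higher without 1 library.

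Over all genes at 24M, lower and higher calls were 173 and 345 with all 4 groups, 371 and 504 with no fold threshold, 51 and 112 without the pair, and 28 to 174 and 91 to 394 without 1 library (lowest without 24M replicate 2, highest without 3M single-end replicate 5). At 29M they were 73 and 368 with no filter, 3 and 83 with all 4 groups, 100 and 351 with no fold threshold, and 7 to 27 and 113 to 207 without 1 library. The cause of these shifts was not tested.

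Replicate numbers did not pair the samples: deviations of same-numbered samples correlated at -0.26 to 0.08 at 24M and -0.30, -0.21 and 0.33 at 29M. A replicate block left 0 members, 0 lower and 0 higher other cell cycle genes, and 25 lower and 58 higher genes at 24M, and the adjusted p of Top2a was 0.114. Depth limits the mitotic genes: with 5 to 50 counts a library, a call on Top2a rests on few reads.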
